A study of Mus musculus with 12 samples.

Results

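The genes described here are 6 sodium channel genes chosen by symbol from the 20368 genes of the deposited expression table. *Scn1a*, *Scn3a*, *Scn4a* and *Scn7a* encode alpha subunits, and *Scn3b* and *Scn4b* encode beta subunits. *Scn7a* is the atypical member of the alpha family, known as a sodium-level sensor rather than as a channel opened by voltage. The table has 14 genes of this family in all, and the 6 hold 11.1% of the reads counted on the 14. The other 8 are not described here. The list was drawn up with the mutant against control comparisons of these data already known, so the genotype values below are a description, and no support is drawn from them. The comparison of stages averaged over the genotypes was tested. In this balanced layout it is independent of both genotype comparisons only for genes with equal spread in the groups.

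Voltage-gated sodium channels open when a membrane depolarizes and carry the inward current that starts an action potential. A channel has a large pore-forming alpha subunit, with 4 repeats that each hold a voltage sensor and part of the pore, and smaller beta subunits with an extracellular immunoglobulin-like domain that change how the pore opens and closes and where it sits. In the heart this current drives conduction through atria, ventricles and the specialized conduction tissue, while other alpha subunits serve mainly nerve or skeletal muscle.

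RNA was taken from embryonic hearts of CD1 mice at 2 ages, E11.5 and E12.5, from Mesp1Cre;Hira+/fl embryos (Cre control) and Mesp1Cre;Hira-/fl embryos (Mutant), with 3 libraries for each of the 4 groups. *Hira* encodes a chaperone of the histone variant H3.3. All groups carry the Cre and 1 floxed allele, so after recombination the controls keep 1 intact *Hira* allele and the mutants none. Cre is made from the *Mesp1* locus, which is active in early cardiogenic mesoderm, so cells of other origin should keep *Hira* in both genotypes. Such cells should have 2 intact alleles in controls and 1 in mutants, which also carry the null allele. Between 11994148 and 17483982 reads per library fell on genes. The 7 cardiomyocyte marker genes together stood at 11480 to 19250 CPM (the counts-per-million scale, which takes out library size) over the 12 libraries, and none was at 0. *Hira* itself, counted over the whole gene, ran from 68.6 to 86.2 CPM in E11.5 controls, 57.0 to 73.7 in E11.5 mutants, 60.7 to 86.5 in E12.5 controls and 70.4 to 79.7 in E12.5 mutants, overlapping at both ages. Such a count takes in exons outside the deleted part, so it does not check the labels. By the reads on 4 Y-linked genes, all 3 E11.5 control libraries were classed as male, while 1 library was male in each of the other groups. The labels do not say whether a library came from 1 heart or whether the libraries of a group came from separate litters. Errors therefore measure the spread between these libraries.

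On GRCm38, 3 of the alpha subunit genes lie on chromosome 2 and on the - strand. *Scn3a* runs from 65457118 to 65567627, *Scn1a* from 66270781 to 66440840 and *Scn7a* from 66673425 to 66784914. *Scn4a* lies on chromosome 11 from 106318592 to 106353288 on the - strand. Both beta subunit genes lie on chromosome 9 on the + strand, *Scn3b* from 40269216 to 40291618 and *Scn4b* from 45138437 to 45154152. In the annotation (GENCODE vM21) the principal transcripts of the alpha subunit genes have 24 to 27 exons, against 7 for *Scn3b* and 5 for *Scn4b*. The lengths used in counting ran from 4244 bases for *Scn4b* to 9560 for *Scn3a*. Transcripts on the opposite strand overlap *Scn1a* (by 12095 bases), *Scn3a* (3341 bases) and *Scn3b* (630 bases). The sources used here do not say whether counting used the strand, so reads from these partners could be among the counts of those genes. For *Scn7a*, *Scn4a* and *Scn4b* the annotation has no overlapping gene.

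Promoter sequences (250 bases before to 50 after the transcript start, GRCm38.p6, from RefSeq) were at hand for 4 of the 6 genes. The promoters of *Scn7a* and *Scn4b* are shown because these genes had most of the reads and the genotype differences of *Scn7a* and *Scn4b* at E12.5 had opposite signs. Capitals mark the E box CAGCTG, a site for basic helix-loop-helix factors, on either strand, and *Scn4b* has no capitals because its window has no such match.
Scn7a (chr2:66784861-66785160, - strand): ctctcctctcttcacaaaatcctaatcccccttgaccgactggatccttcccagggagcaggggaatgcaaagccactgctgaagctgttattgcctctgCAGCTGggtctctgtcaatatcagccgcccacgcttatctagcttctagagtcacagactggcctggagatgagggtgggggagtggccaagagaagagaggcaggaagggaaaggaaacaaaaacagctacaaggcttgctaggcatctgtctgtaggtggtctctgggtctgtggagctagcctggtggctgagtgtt
Scn4b (chr9:45138374-45138673, + strand): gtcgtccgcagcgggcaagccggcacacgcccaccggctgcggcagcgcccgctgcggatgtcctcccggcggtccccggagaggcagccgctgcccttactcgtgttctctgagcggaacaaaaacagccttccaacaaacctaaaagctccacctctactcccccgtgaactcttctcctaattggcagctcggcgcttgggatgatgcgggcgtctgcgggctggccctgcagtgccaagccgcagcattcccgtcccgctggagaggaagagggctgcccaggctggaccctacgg
The windows differ in base composition. *Scn4b* has 26 CpG dinucleotides and 66.3% G and C, while *Scn7a* has 3 and 54.0%, and the median promoter has 7 and 53%. *Scn1a* has 5 CpG and *Scn4a* 4. The *Scn4a* window is set on a transcript start at 106349390, which lies inside the gene span given above, since that span reaches 106353288. Of 32544 promoters of this length, 16.4% hold CAGCTG, 13.6% the TATA box letters TATAAA and 3.95% the repeat GAGAGAGA, each searched on both strands. Of the 4 windows, only that of *Scn7a* held any of the 3 motifs, with 1 CAGCTG, so these letters are not in the other windows, and nothing follows from that about any factor.

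Per gene length, *Scn4b* and *Scn7a* had the highest mean levels of the 6 genes. RPKM here is CPM divided by gene length in kilobases, computed from the counts. Averaged over the 12 libraries, *Scn4b* stood at 0.893 RPKM and *Scn7a* at 0.735, *Scn3b* at 0.263, *Scn4a* at 0.0511, *Scn3a* at 0.0398 and *Scn1a* at 0.0169. Even the highest, *Scn4b*, exceeded only 34.9% of the 17827 genes with a read, so all 6 were scarce transcripts in whole-heart RNA.

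**Figure D1:**
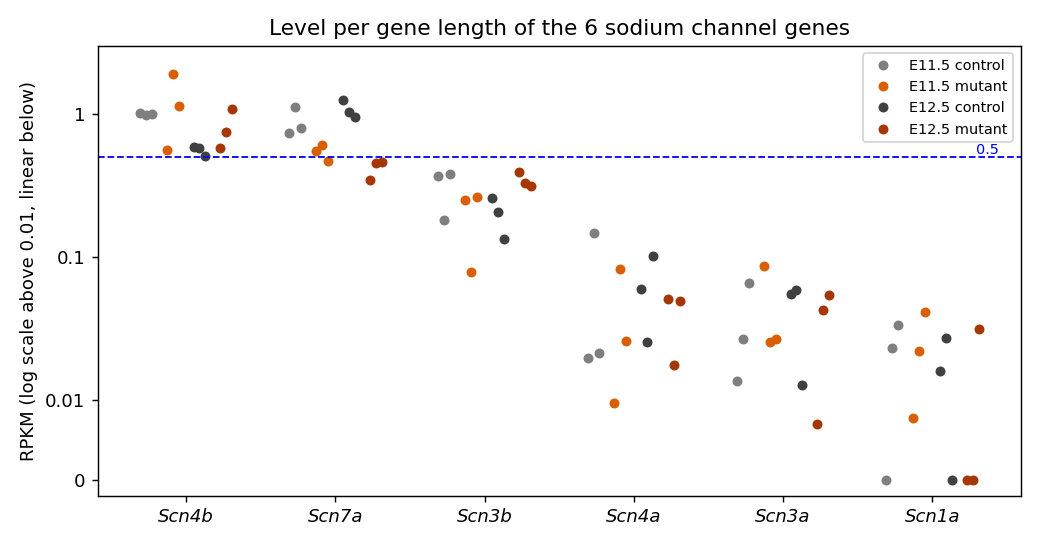
RPKM of the 6 sodium channel genes (x axis, ordered by mean level) in each of the 12 libraries, coloured by group; the y axis is logarithmic above 0.01 and linear below. *Scn4b* and *Scn7a* overlap, all 12 *Scn4b* points lie above the dashed line at 0.5 RPKM and *Scn7a* lies on both sides of it, while *Scn4a*, *Scn3a* and *Scn1a* lie at 0.147 RPKM or less in every library.

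The order between neighbours was firm in some places only. *Scn4b* was above *Scn7a* in 8 of the 12 libraries, in all 6 mutant libraries and in 2 of the 6 control libraries, both of E11.5. In the 3 E12.5 controls *Scn7a* was the higher. *Scn7a* exceeded *Scn3b* in 11 of 12 libraries, and *Scn3b* exceeded *Scn4a* in 11 of 12. *Scn4a* and *Scn3a* were not separable, with *Scn4a* higher in 6 of 12. *Scn3a* was above *Scn1a* in 11 of 12.

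*Scn7a* and *Scn4b* passed the filter for testing, a mean of 0.5 RPKM over the libraries of a comparison, in each comparison. The other 4 did not, and for them reads are given, with fold changes from a fit without the filter. At E12.5 *Scn7a* passed only through its controls, at a mean of 1.08 RPKM. Its E12.5 mutants were at 0.347, 0.454 and 0.464 RPKM, each under the filter value. In bulk RNA of a whole heart, fewer cells of a type and less RNA per cell cannot be told apart, for these genes as for any other.

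*Scn7a* differed most between the genotypes of the pair that could be fitted with the filter, with less in every mutant library. The 3 E11.5 control libraries had 5.42, 8.27 and 5.89 CPM and the 3 E11.5 mutant libraries 4.04, 4.44 and 3.44. At E12.5 the controls had 9.24, 7.61 and 7.01 CPM and the mutants 2.54, 3.33 and 3.40. Every mutant library lay below every control library at each age, and also below every control library of the other age. The E11.5 means of control and mutant were 6.53 ± 1.53 and 3.97 ± 0.50 CPM (SD, n = 3 each), and the fitted log2 fold change was -0.70 (SE 0.25). The E12.5 means were 7.95 ± 1.15 and 3.09 ± 0.476 CPM, and the fitted log2 fold change was -1.34 (SE 0.20), which is 0.394-fold. These levels rest on 295 and 389 reads in the control groups and 176 and 147 in the mutant groups, at E11.5 and E12.5. The 1 male E12.5 control had 7.01 CPM and the 1 male E12.5 mutant 2.54. At E11.5 the controls were all male, and the 1 male mutant had the lowest level of that age, 3.44 CPM. With sex as a covariate the fitted difference was -0.90 at E11.5 (SE 0.38) and -1.35 at E12.5 (SE 0.19), in log2 units.

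**Figure D2:**
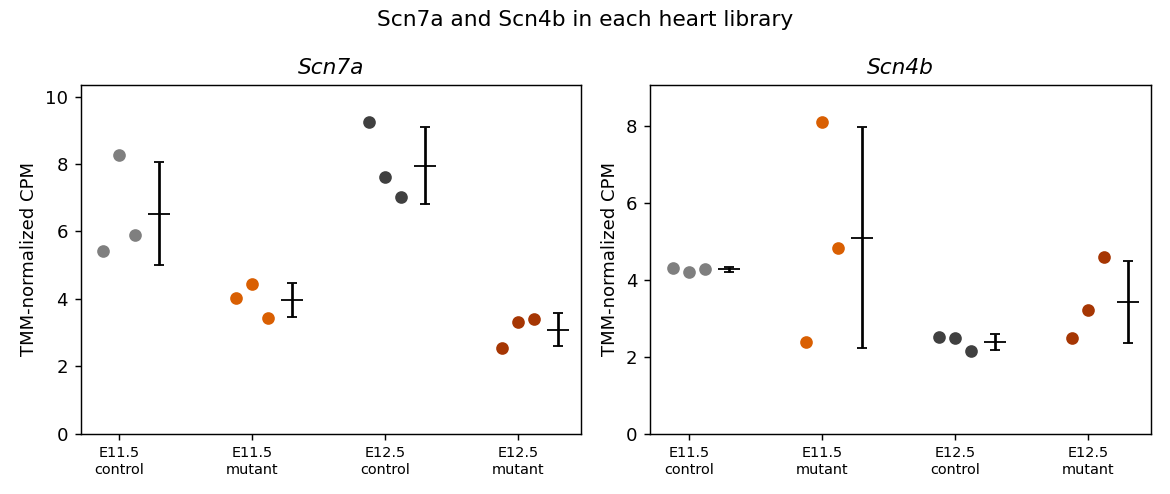
TMM-normalized CPM of *Scn7a* (left) and *Scn4b* (right) in each library (points) of the 4 groups, with the mean and SD of 3 libraries (bars). *Scn7a* is at 7.01 CPM or more in all E12.5 controls and at 3.40 or less in all E12.5 mutants, while the *Scn4b* points of mutants and controls overlap at both ages.

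*Scn4b*, whose beta subunit takes part in resurgent sodium current in nerve cells and is also made in heart, did not follow *Scn7a*. Its E11.5 control libraries were close together, at 4.31, 4.2 and 4.28 CPM, while the E11.5 mutants had 2.37, 8.08 and 4.82. At E12.5 the controls had 2.51, 2.48 and 2.15 CPM and the mutants 2.48, 3.21 and 4.58. The genotypes overlapped at each age, at E12.5 through 1 mutant library that lay among the controls. The log2 fold change was 0.26 (SE 0.39) at E11.5 and 0.54 (SE 0.27) at E12.5. Both values moved with single libraries. The E11.5 log2 fold change was -0.24 without the second mutant library and 0.61 without the first, and the E12.5 one was 0.27 without the third mutant library.

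*Scn7a* and *Scn4b* were also set against each other within each library, which takes out the library's depth. The ratio of their RPKM, *Scn7a* over *Scn4b*, was 2.13, 1.78 and 1.89 in the E12.5 controls and 0.594, 0.600 and 0.430 in the E12.5 mutants, with no overlap. At E11.5 it was 0.728, 1.14 and 0.797 in controls and 0.985, 0.318 and 0.413 in mutants, and there the genotypes overlapped. The ratio restates the values of the 2 genes given above, so it is a description too and adds no support. How often other gene pairs separate in this way was not computed.

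*Scn3b*, the beta subunit gene found in heart and brain, was sparse. The reads numbered 26, 13 and 25 in E11.5 controls and 18, 6 and 14 in E11.5 mutants. At E12.5 they numbered 18, 17 and 10 in controls and 27, 26 and 22 in mutants, so that all 3 mutants were above all 3 controls at the later age, while at E11.5 the genotypes overlapped with the mutants on the low side. In CPM the means were 1.43 ± 0.513 and 0.908 ± 0.471 at E11.5, and 0.920 ± 0.288 and 1.59 ± 0.193 at E12.5 (control and mutant, SD, n = 3). In the fit without the filter *Scn3b* differed by -0.67 (SE 0.52) at E11.5 and 0.80 (SE 0.37) at E12.5, in log2 units. The change between these mutant effects, 1.46 on the log2 scale (SE 0.63), is made of the same genotype comparisons and is a description too.

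*Scn4a*, the alpha subunit of skeletal muscle, had from 1 to 15 reads per library. The E11.5 controls had 2, 15 and 2 reads and the E11.5 mutants 1, 9 and 2. The E12.5 controls had 6, 3 and 11 reads and the mutants 5, 2 and 5. In each of the E11.5 groups 1 library held most of the reads, and the genotypes overlapped at both ages. The log2 fold changes without the filter were -0.62 (SE 0.95) at E11.5 and -0.65 (SE 0.72) at E12.5. The list of 8 skeletal muscle markers had a higher sum in every mutant library, with 411 to 447 CPM in E11.5 controls against 768 to 993 in mutants, and 290 to 457 against 770 to 847 at E12.5. Of the 6 skeletal muscle markers tested at E12.5, *Acta1* and *Tnni2*, which make up most of the sum, were called higher and none lower. The study also reports both as upregulated in mutant hearts. Its in situ hybridization showed the *Tnni2* increase mainly in the ventricular free wall. *Ckm*, the muscle creatine kinase, stood at 66.7 ± 2.78 CPM in controls and 48.3 ± 11.1 in mutants at E12.5, and *Mylpf*, a fast myosin light chain, at 12.1 ± 5.18 and 13.5 ± 3.92. The defining genes *Myod1* and *Myf5* had 30 and 3 reads in the E12.5 mutants together, 5 and 0 in the E12.5 controls, 1 and 3 in the E11.5 mutants and 0 in the E11.5 controls. The part of skeletal muscle cells was not tested, and no difference in *Scn4a* was detectable at its depth.

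*Scn3a* and *Scn1a*, the alpha subunits best known from brain, were barely detected. *Scn3a* had 2, 4 and 9 reads in E11.5 controls, 13, 4 and 3 in E11.5 mutants, 8, 10 and 2 in E12.5 controls and 1, 7 and 8 in E12.5 mutants. The 4 groups overlapped throughout, with log2 fold changes without the filter of 0.41 (SE 0.79) at E11.5 and -0.25 (SE 0.74) at E12.5. *Scn1a* had at most 4 reads in any library, 25 in all 12, and none in 4 of them, where a count of 0 allows up to 3 reads, or 0.175 to 0.201 CPM. No fold change is given for it. A genotype difference in *Scn1a* was not detectable at this depth.

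**Figure D3:**
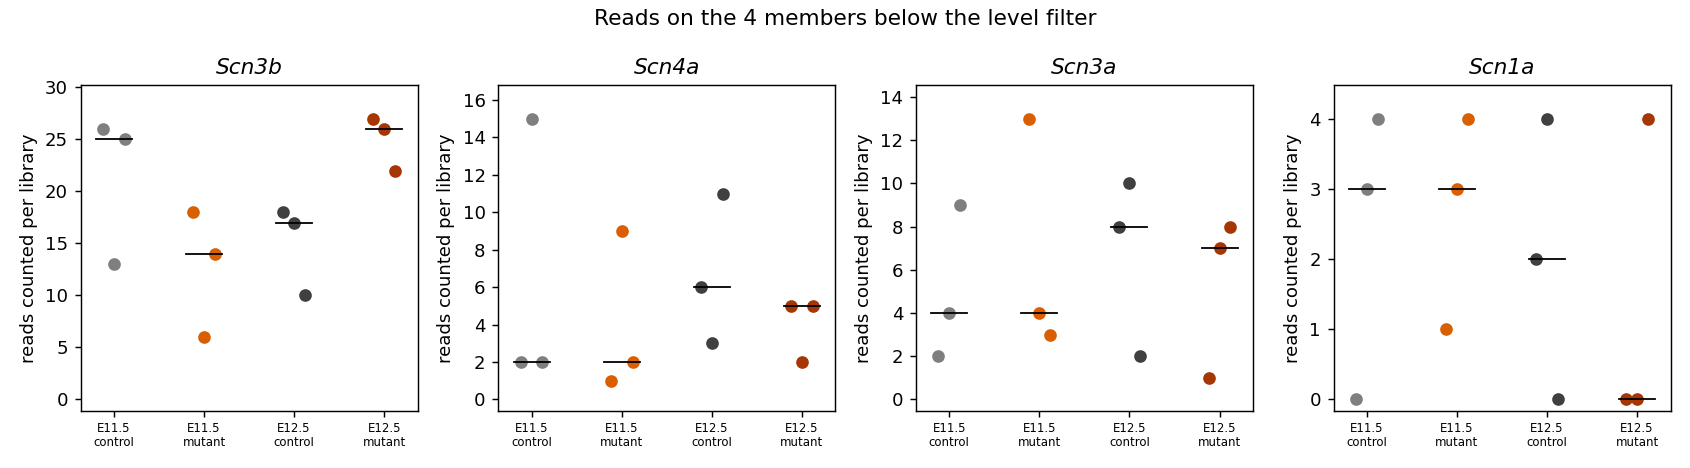
Reads counted per library (y axis) on *Scn3b*, *Scn4a*, *Scn3a* and *Scn1a* in the 4 groups, points being libraries and lines group medians. The E12.5 mutants are above the E12.5 controls for *Scn3b*, with 22 to 27 reads against 10 to 18, and the groups overlap for the other genes.

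Across the genotype comparisons, 1 of the 6 genes, *Scn7a*, passed the study's thresholds at E12.5 (Benjamini-Hochberg adjusted p of at most 0.05 over all genes tested and at least 1.5-fold, edgeR), where 2.95% of all 12257 genes tested did. None passed at E11.5 with edgeR or DESeq2, where 0.115% of 12197 genes did with edgeR, and 1, *Scn7a*, had an unadjusted p under 0.05. The mutant and control libraries did not overlap for *Scn7a* and *Scn3b* at E12.5 and for *Scn7a* at E11.5, or 2 and 1 of 6, where 21.1% and 13.8% of all genes with a read were apart in this way. Because the list was chosen with these comparisons known, these counts are printed beside the background and nothing is read from them. *Scn7a* was 30th by size of change among the 167 genes called lower at E12.5.

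**Figure D4:**
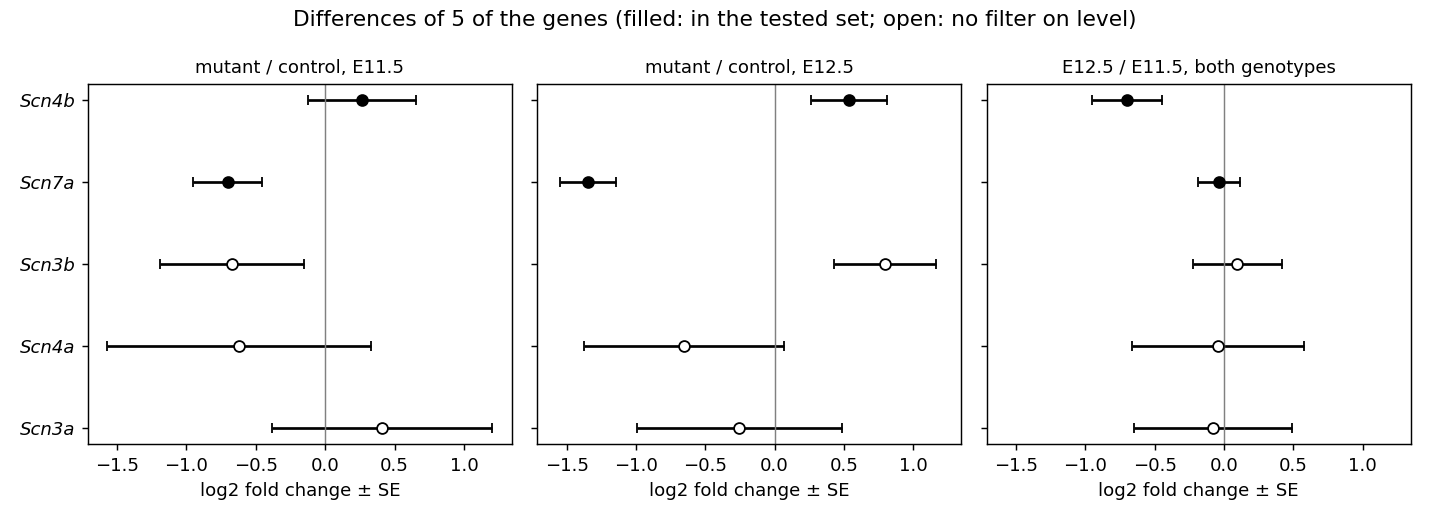
Log2 fold change with SE (x axis) of 5 of the genes for mutant against control at E11.5, at E12.5, and for E12.5 against E11.5 over both genotypes; filled points passed the level filter and open points come from the fit without it, and *Scn1a* is left out because 4 libraries were at 0. *Scn7a* lies at -0.70 and -1.34 in the genotype panels and near 0 in the stage panel, where *Scn4b* is lowest at -0.70.

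The stage comparison asks which genes change between E11.5 and E12.5 whatever the genotype. None of the 6 genes was called, where 4.04% of the 12270 genes tested over the 12 libraries were, and none had its 6 E12.5 libraries all above or all below its 6 E11.5 libraries, as 3.62% of all genes with a read did. At an unadjusted p under 0.05 there was 1, *Scn4b*, which had the larger estimate of the pair tested, -0.70 in log2 units (SE 0.25) from E11.5 to E12.5. Its adjusted p was 0.0805 in edgeR's quasi-likelihood test, and an exact two-sided permutation test of the ages within genotype gave p = 0.055, the smallest possible being 0.005. In controls all 3 E12.5 libraries lay below all 3 E11.5 libraries (2.15 to 2.51 against 4.2 to 4.31 CPM, log2 fold change -0.84, SE 0.36), a separation in either direction that 28.5% of all genes with a read showed. In mutants the ages overlapped (log2 fold change -0.57, SE 0.35). The spread of *Scn4b* was unequal at E11.5, with an SD of 0.0587 CPM in controls and 2.865 in mutants. Its stage estimate is therefore not independent of its genotype comparison at that age. The *Scn4b* difference was past the thresholds with DESeq2 in place of edgeR and without the first E11.5 mutant library, where the log2 fold changes were -0.71 and -0.88. Without the second E11.5 mutant library it was -0.44 (adjusted p = 0.167, edgeR), and with limma on log2(RPKM + 1) it was -0.30.

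No stage difference was detected for *Scn7a* on average over the genotypes, its log2 fold change being -0.04 with an SE of 0.15. The adjusted p was 0.887 in edgeR and the exact permutation p was 0.83. Within the genotypes its estimates pointed in opposite directions, 0.29 (SE 0.21) in controls and -0.36 (SE 0.22) in mutants on the log2 scale. The 3 E12.5 mutants lay below the 3 E11.5 mutants (2.54 to 3.40 against 3.44 to 4.44 CPM), and *Scn3b* was higher in all 3 E12.5 mutants than in the E11.5 mutants, where 14.7% of all genes with a read were apart in either direction. In controls the ages overlapped for both. For *Scn7a* the change in the mutant effect from the earlier to the later age was -0.64 (SE 0.31) on the log2 scale. It is made of the genotype comparisons and is a description, not part of the stage test. No gene of the 12270 had an adjusted p of at most 0.05 for this difference in edgeR, and 551 had an unadjusted p under 0.05. For the 4 sparse genes the exact permutation test of the stage gave p of 0.33 for *Scn1a*, 0.84 for *Scn3a*, 0.625 for *Scn4a* and 0.725 for *Scn3b*, with 6 tests in the family.

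Marker genes of cell types in the heart were set beside *Scn7a*. The Schwann and neural crest list, of which 5 of 6 genes were in the comparisons, summed to 13.6 to 18.6 CPM in E12.5 controls and 16.1 to 18.2 in E12.5 mutants, and neither of the 2 genes tested was called. At E11.5 it ran from 10.4 to 20.2 CPM in controls and 12.5 to 30.1 in mutants. *Sox10*, its defining gene, had 0 to 8 reads per library except for 38 in 1 E12.5 mutant. The conduction list (8 genes) summed to 270 to 399 CPM in controls and 192 to 275 in mutants at E12.5. *Cacna2d2* and *Gja5* make up most of this sum. *Irx3*, a transcription factor of the ventricular conduction system, was called lower (log2 fold change -0.75, SE 0.14). *Hcn4* alone of those tested at E12.5 had a positive log2 fold change, 0.14 (SE 0.20), and at E11.5 it had 0.89 (SE 0.55). The conduction list at E11.5 ran from 149.7 to 297 CPM in controls and 147 to 248 in mutants. The mesenchyme list (5 genes) overlapped at E12.5, at 1510 to 1933 and 1218 to 1566 CPM, with *Postn*, a matrix protein of cushion and valve cells, called lower (-0.61, SE 0.13). At E11.5 the mesenchyme sum was lower in all mutants, at 625 to 1072 CPM against 1280 to 1586. *Col1a1* and *Postn* make up most of this sum. All 5 genes had negative log2 fold changes at E11.5, but only *Col1a1* did not overlap between the genotypes. It ran from 454 to 832 CPM in controls and 241 to 442 in mutants. The sum of the neuron list (8 genes) was higher in mutants, at 22.4 to 32.6 CPM in E11.5 controls, 36.9 to 69.3 in E11.5 mutants, 16.2 to 21.7 in E12.5 controls and 44.5 to 51.6 in E12.5 mutants, with *Tubb3*, *Stmn2* and *Prph* called higher at E12.5. *Tubb3* and *Stmn2* make up most of this sum, and the list did not move as a whole. *Elavl4*, a neuronal RNA-binding protein, had log2 fold changes of -0.24 (SE 0.31) at E11.5 and -0.25 (SE 0.28) at E12.5. *Th*, of catecholamine synthesis, had -1.10 (SE 0.37) at E11.5, and *Dbh*, of the same pathway, had 19 reads in E11.5 controls and 4 in mutants, and 23 and 9 at E12.5. The part of these cell types in the *Scn7a* and *Scn3b* values was not tested.

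**Figure D5:**
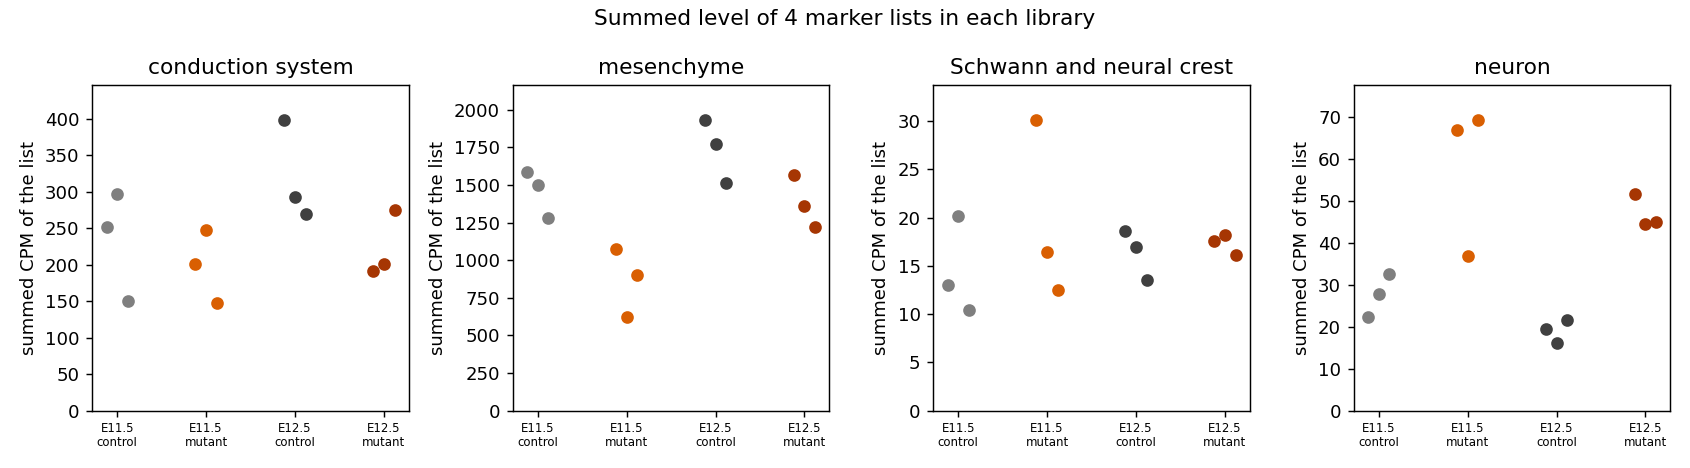
Summed CPM (y axis) of the conduction system, mesenchyme, Schwann and neural crest, and neuron marker lists in each library of the 4 groups. The neuron sum is higher in all mutants than in any control of the same age, and the mesenchyme sum is lower in all E11.5 mutants. The conduction and the Schwann and neural crest sums overlap between genotypes.

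The sum of the macrophage list (4 genes) was lower in all mutants at both ages. It stood at 19.5 to 48.9 CPM in controls against 7.11 to 11.2 in mutants at E11.5. At E12.5 it stood at 44.2 to 61.0 against 25.5 to 37.1, with 2 of 3 genes tested called lower. The erythroid list, with 3 of 5 genes in the comparisons, stood at 428 to 635 CPM in E12.5 controls and 226 to 310 in E12.5 mutants, with 2 of 3 called lower. At E11.5 it lay the other way with overlap, at 352 to 476 CPM in controls and 420 to 584 in mutants, and none was called. The endothelium, epicardium and cardiomyocyte lists overlapped and had no gene called at E12.5, while at E11.5 the epicardium list ran from 385 to 609 CPM in controls and 271 to 348 in mutants. No marker gene of any list was called between the genotypes at E11.5, where 0.115% of all genes tested were. For the marker calls at E12.5, the share over all genes tested was 2.95%.

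Sodium channels work with partner proteins that anchor them, modify their gating or remove them from the membrane. Of 17 partner genes listed, 16 were in the comparisons, 14 were tested at E11.5 and 15 in the other comparisons. For mutant against control none was called at E11.5, where 0.115% of all genes tested were. At E12.5 there was 1, where 2.95% of all genes tested were called. This was *Ptpn3*, a tyrosine phosphatase that binds sodium channel tails. It stood at 7.82 ± 1.23 CPM in controls and rose to 12.1 ± 0.759 in mutants, a log2 change of 0.64 (SE 0.15), and edgeR gave an adjusted p of 0.0374. Between the ages, where 4.04% of all genes tested were called, 2 partners were called higher and none lower. Both encode intracellular FGF homologous factors that bind the channel tail. *Fgf11* rose by 1.01 (SE 0.20) and *Fgf12* by 2.23 (SE 0.50) in log2 units, and their adjusted p in edgeR were 0.00743 and 0.015. *Fgf12* was uneven, with 20 to 168 reads in the E12.5 controls. For mutant against control *Fgf11* was not called, with log2 fold changes of 1.05 (SE 0.34) at E11.5 and 0.87 (SE 0.23) at E12.5. The adjusted p of *Fgf11* in edgeR were 0.299 and 0.0535 there. *Ank2*, an ankyrin that anchors ion transporters, passed the adjusted p but not the fold threshold, with a log2 fold change of 0.36. The median partner had a log2 fold change of 0.05 at E11.5, 0.01 at E12.5 and 0.07 between the ages, against 0.00014, -0.0018 and 0.0071 over all genes tested.

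Genes lying near the 6 were looked at for shared differences. Within 500000 bases of *Scn7a*, 1 of 3 neighbouring genes was tested, *Ttc21b*, a cilium gene, and its log2 fold change was -0.12 at E11.5 and -0.03 at E12.5. Around *Scn4b*, 0 of 11 tested neighbours were called at E12.5, around *Scn3b* 0 of 3 and around *Scn3a* 0 of 2. Over all genes tested, 2.95% were called at that age. Around *Scn4a* 1 of 22 was called, the endothelial adhesion gene *Icam2* (0.65), and around *Scn1a* 1 of 2, which is *Scn7a* itself. Between the ages 1 of 12 tested neighbours of *Scn4b* was called, and none around the other members, where 4.04% of all genes tested were.

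The genes whose log2 CPM followed *Scn7a* most closely over the 12 libraries, out of 12269, were *Dctn4* (Pearson r = 0.966), *Pcsk6* (0.937) and *Atp1b1* (0.923). *Dctn4*, a dynactin subunit, ran from 94.1 to 117 CPM only. *Pcsk6*, a proprotein convertase, had a pattern of like size, at 63.3 ± 8.93 and 31.2 ± 3.97 CPM in control and mutant hearts at E11.5 and 65.2 ± 18.9 and 24.6 ± 3.47 at E12.5. *Atp1b1* encodes the beta subunit of the sodium-potassium pump, which restores the gradient that sodium channels draw on. For *Scn4b* the closest genes were *Slc19a2* (0.874), *Ddx28* (0.871) and *Rab8a* (0.864), whose levels each varied by less than 1.5-fold over the libraries. These correlations describe the same 12 libraries, which fall into genotype and age groups and share depth and scaling.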

How the data were processed

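The 12 RNA-seq libraries of embryonic hearts were analysed, 3 for each genotype at E11.5 and E12.5. The submitters' processing notes name Bowtie2, DESeq and the mm10 build, the study's methods name a NextSeq 500 with paired-end reads and the series text a GAIIx. The counting program, annotation and use of strand are not given in the sources used here. What the authors deposited is a single table under the name RPKM and, for each age, the average count of each group. The deposited average counts were classed under expected counts, being means of 3 raw counts per gene, and the authors' p-values, z scores and fold changes beside them were not used. The deposited values named RPKM were handled as a score, since they proved to be whole counts times a gene length times a library factor. Both factors were fitted on 13072 genes from the average counts, and dividing them out gave counts within 7.42e-10 of a whole number for 17827 genes (1597 had no read). In a simulated table all 3997 genes with reads were recovered. Genes without average counts were not tested.

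Counts were tested with edgeR 4.0.16 (quasi-likelihood, TMM scaling) for genes whose RPKM averaged 0.5 or more in the libraries fitted, 6 libraries per age for genotype and 12, with 1 mean per group, for the stage contrast averaged over genotypes. Genes were called at 1.5-fold or more with an adjusted p (Benjamini-Hochberg, over all genes tested) no higher than 0.05. CPM and RPKM use TMM sizes over the 12 libraries, and SEs come from edgeR's F. The fits were tested on simulated data. Alternatives were no filter, a filter at a mean RPKM of 5, median-ratio and upper-quartile scaling, DESeq2 1.42.0, limma 3.58.1 on log2(RPKM + 0.5, 0.1 or 1), no fold threshold, replicate number as a block, sex, all 12 libraries in one fit, and each library left out. Libraries held 11994148 to 17483982 counts.

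The members, the partner list and the marker lists were chosen with earlier results of these data known. Named are the members, partner genes past a threshold, called markers, the 3 genes most correlated with each member tested, and *Hira*; the other family genes are given as a group, and some genes that this rule names are not reported here. Neighbours, and markers that were not called, were named after their values were seen.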

Additional observations from a re-analysis of the deposited data

How the results depend on the processing

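At E12.5 the number of the 6 genes called against control, 1 (*Scn7a*), fell to 0 with a mean RPKM of at least 5, because *Scn7a* was then not tested, and with limma on log2(RPKM + 1), where its log2 fold change was -0.55. It was 1 with each library left out, the log2 fold change of *Scn7a* running from -1.42 to -1.23. At E11.5 the number was 0 under all 18 alternatives. For the stage difference it was 0, and 1 (*Scn4b*) with DESeq2 and without the first E11.5 mutant library, so 0 to 1 over the libraries left out. The *Scn4b* stage difference kept its sign, from -0.88 to -0.30, and its adjusted p lay between 0.0154 and 0.168 over the alternatives. The near-zero stage difference of *Scn7a* changed sign with limma on log2(RPKM + 0.5), at 0.011, and on log2(RPKM + 1), at 0.015, and ran from -0.10 to 0.065 with 1 library left out, being 0.065 without the second E11.5 control, 0.0036 without the second E11.5 mutant and 0.024 without the first E12.5 mutant. *Scn4b* at E11.5 ran from -0.24, without the second mutant, to 0.61, and at E12.5 from 0.27, without the third mutant, to 0.72, with 1 library left out.

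With the replicate number as a block no call of a member changed (*Scn7a* at E12.5 -1.34, at E11.5 -0.69, *Scn4b* stage difference -0.68). The numbers carry no stated pairing, and deviations of same-numbered libraries correlated from 0.0134 to 0.392 at E11.5 and from 0.0305 to 0.0659 at E12.5. Over all genes, calls numbered 362 at E12.5 (132 with all 12 libraries in one fit, 157 at a mean RPKM of at least 5, 151 to 368 with 1 library left out, being 151 and 235 without the first and second control and 216 without the first mutant, 613 with no fold threshold), 14 at E11.5 (0 to 15 with 1 library left out, being 0 without control library 1 or 3 or mutant library 1 or 2, and 8 without control library 2, 6 at a mean RPKM of at least 5, 73 with no filter, 29 with sex, 16 to 27 with limma, 248 with DESeq2, 221 with all libraries, 73 with the block) and 496 for the stage (326 to 618 with 1 library left out, being 326 without the first E12.5 control, 278 with limma on log2(RPKM + 1), 168 at a mean RPKM of at least 5, 1545 with no fold threshold). The 4 sparse genes are limited by their reads.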
